A study of Macaca mulatta with 2 samples.

Results

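The 41 phototransduction and photoreceptor genes described here, chosen by symbol among 16684 genes of an optic nerve expression table, encode parts of the machine with which rods and cones of the retina turn light into an electrical signal. In a rod or cone, a light-activated opsin switches on the G protein transducin, transducin releases the brake on phosphodiesterase 6, cyclic GMP falls and cyclic nucleotide-gated channels close. Arrestin, a kinase and calcium sensors then shut the cascade off, and guanylate cyclase restores cyclic GMP. The cell bodies of photoreceptors lie in the outer retina, whereas the optic nerve holds the axons of retinal ganglion cells with glia, vessels and meninges.

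Total RNA from wild-type, untreated *Macaca mulatta* optic nerves was sequenced in 2 libraries of the same condition, named Rep1 and Rep2 in the deposited table, and no other group was present. The deposited description gives a pair of animals as the source and the methods give a single adult male, collected after death as discarded tissue, so whether the libraries are separate animals is not settled. The set of genes was drawn up when values of these libraries were already known, and all 41 symbols were found in the table. Since the difference between the libraries was part of that knowledge, it is given as a description with no test. Levels are in TPM, a share of length-corrected reads that sums to 1000000 in each library, so levels of different genes can be set side by side. In bulk tissue, fewer cells of a type and less RNA per cell cannot be told apart.

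The libraries differed in depth and in the levels of nerve markers. A read of Rep1 was worth 17.2 times as many TPM as a read of Rep2, as computed from genes above 0 in both, and the smallest whole read numbers that fit a gene's 2 values are quoted below as minimum reads. Over all genes the median was 2.09 TPM (Rep1) and 7.93 TPM (Rep2). All 22 markers of oligodendrocytes, astrocytes, vessels and meninges were present in Rep2 and lower in Rep1, by log2(TPM + 1) differences from -6.55 to -0.74, so the labelled tissue was recognisable in both libraries but weaker in Rep1. The part that these differences play in the levels below was not tested.

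The photoreceptor genes summed to 12612 TPM in Rep1, or 1.26% of the library, and to 132 TPM in Rep2, or 0.0132% (mean 6372 ± 8825, SD, n = 2). The excess in Rep1 came from few genes. *UNC119*, *GNAT1* and *GNB1* held 79.5% of the sum in Rep1, and with *OTX2* and *NEUROD1* the share was 91.4%. *UNC119* and *GNB1* are expressed in many cell types, and without them the sums were 5352 TPM in Rep1 and 43.2 TPM in Rep2. Of the 41 genes, 13 reached 10 TPM in Rep1 (31.7%), beside 31.3% of all genes. In Rep2 only *GNB1*, *ROM1* and *UNC119* did so (7.32%), beside 46.4% of all genes.

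Some of the genes were very high in Rep1 and others of the same pathway were not seen at all. In Rep1, 16 of the 41 genes were listed at 0 (39.0%), a share close to the 38.5% of all genes. In Rep2, 8 were listed at 0 (19.5%), beside 12.5% of all genes. *GNGT1*, *CNGB3*, *GRK1*, *GUCA1C* and *RP1* were listed at 0 in both libraries (12.2%, beside 11.9% of all genes). Of the 36 photoreceptor genes that were detected in any library, 15 (41.7%) were at least 4-fold higher in Rep1 on the log2(TPM + 1) scale, beside 8.30% of all genes, and 1 (2.78%) was at least 4-fold lower, beside 30.7%. The median difference (Rep1 minus Rep2) over the 36 genes was 0.64, against -1.07 over the 14693 genes of the table detected in any library, and over all 41 genes it was 0.17, against -0.74 over all genes of the table. These counts are affected by the way the set was drawn up and are no independent evidence of a direction. *GNAT1*, *NEUROD1*, *OTX2* and *PDE6G* had, in this order, the 4 highest differences of the whole table, also after scaling by the median of ratios and without the 10 most abundant genes, whereas *GNAT1* moved to rank 5 with a pseudocount of 0.1.

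**Figure D1:**
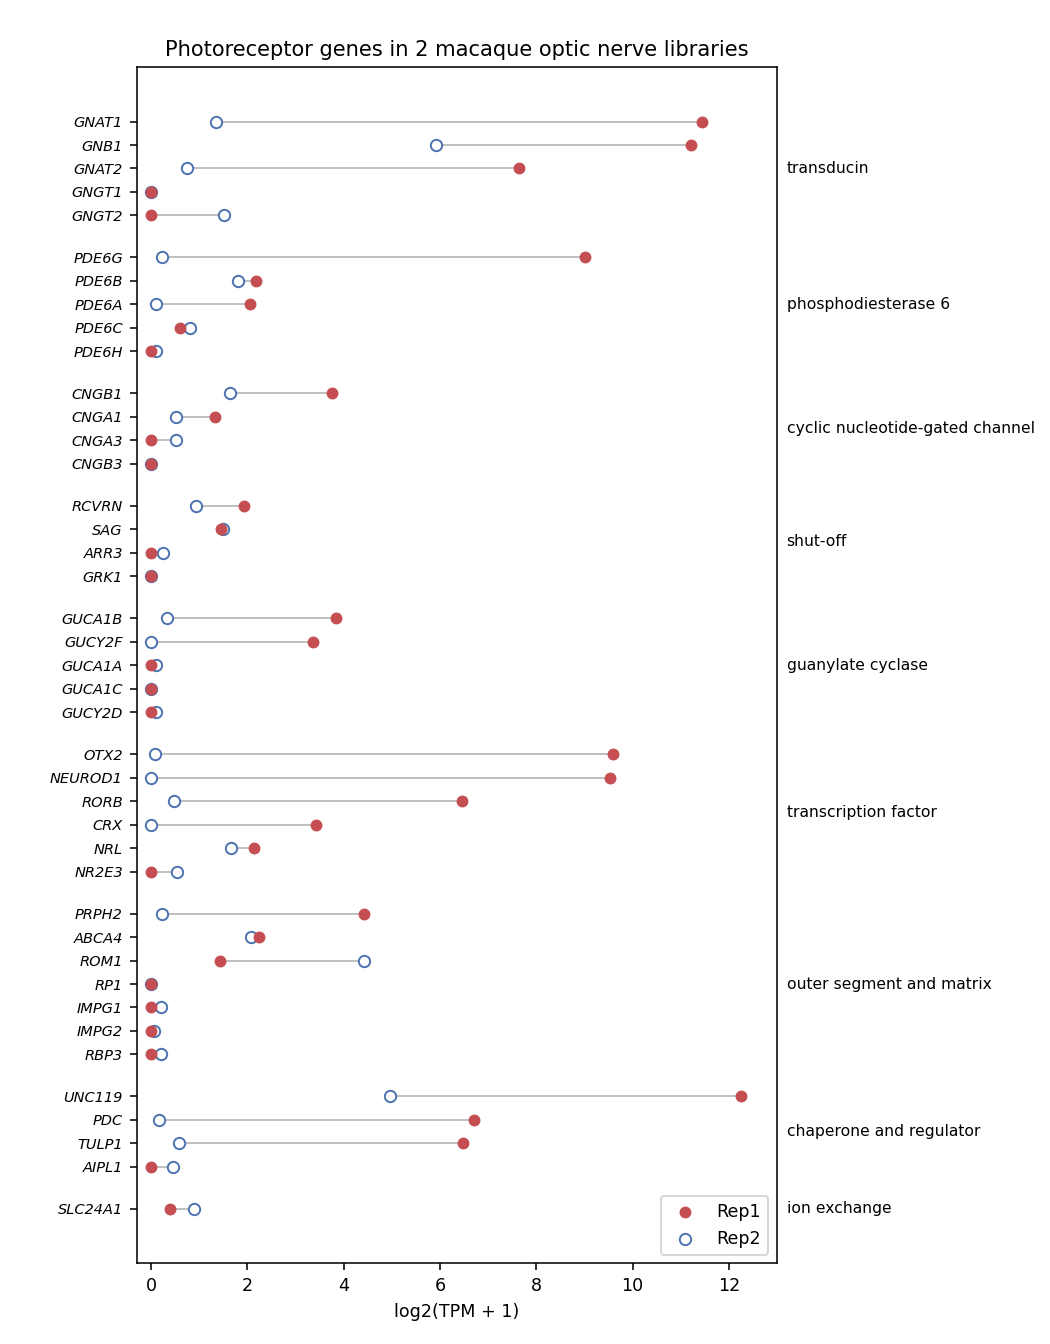
Level of each of the 41 genes, as log2(TPM + 1), in Rep1 (filled red points) and Rep2 (open blue points), 1 library each, grouped by role. *GNAT1*, *OTX2*, *NEUROD1* and *PDE6G* run from near 0 in Rep2 to at least 514 TPM in Rep1, while 16 genes sit at 0 in Rep1 and *ROM1* is the gene that is clearly higher in Rep2.

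**Figure D2:**
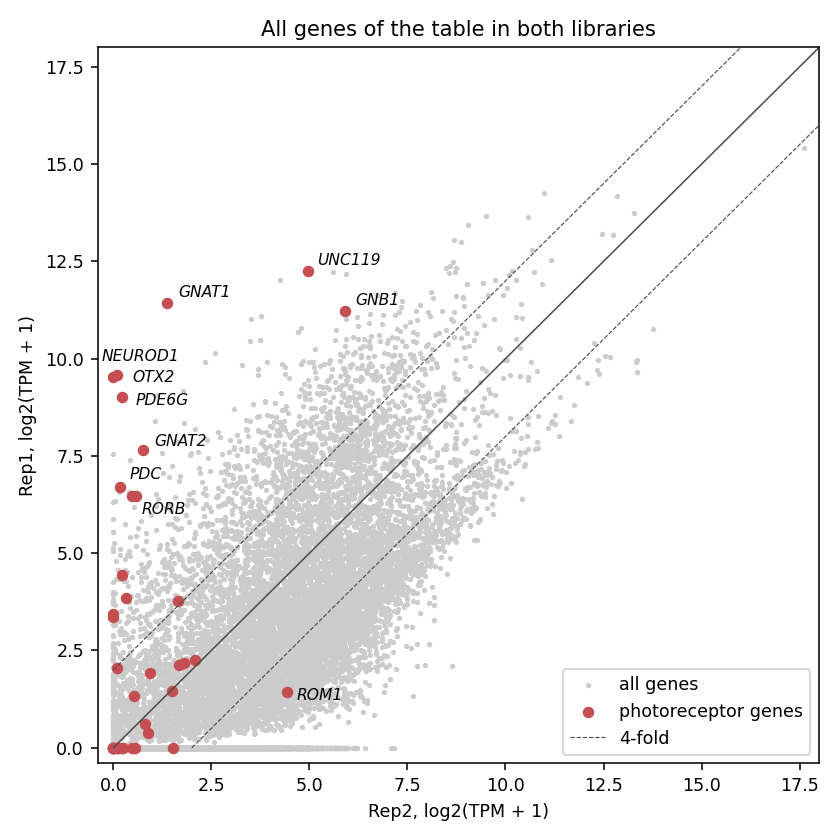
Level of all 16684 genes in Rep2 (x axis) and Rep1 (y axis), as log2(TPM + 1), with the 41 photoreceptor genes in red, the line of equality and dashed lines at a 4-fold difference. Of the 15 red points above the upper dashed line, all but *UNC119* and *GNB1* had less than 2.5 TPM in Rep2.

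Transducin is the G protein that opsins activate. *GNAT1*, its rod alpha subunit (Mmul_10 chromosome 2, 106314507 to 106320727, plus strand), reached 2763 TPM in Rep1 against 1.56 TPM in Rep2, from at least 1340 and 13 reads. An unnamed locus overlaps it on the opposite strand. It ranked 43 of all genes in Rep1 and 11467 in Rep2, with a log2(TPM + 1) difference of 10.08. *GNAT2*, the cone alpha subunit (chromosome 1, 114520694 to 114536350), had 200 TPM in Rep1 against 0.687 TPM in Rep2, from at least 271 and 16 reads, a difference of 6.90. *GNB1*, the rod beta subunit that most other cells also use, had 2389 TPM in Rep1 against 59.2 TPM in Rep2, a difference of 5.31. Both alpha subunits and the beta subunit were therefore high in Rep1, but the gamma subunits were not. *GNGT1*, the rod gamma subunit, was listed at 0 in both libraries. *GNGT2*, the cone gamma subunit, was listed at 0 in Rep1 and had 1.85 TPM in Rep2, and it overlaps *ABI3* on the opposite strand. In Rep1 the level of *GNAT1* was 1.16 times that of *GNB1* and 13.8 times that of *GNAT2*. In Rep2 *GNB1* stood far above both alpha subunits. *GNB3*, the cone beta subunit and not among the 41 genes, had 958 TPM in Rep1 against 4.06 TPM in Rep2, from at least 933 and 68 reads.

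Phosphodiesterase 6 breaks down cyclic GMP and is held inactive by a small inhibitory subunit until transducin binds it. *PDE6G*, the rod inhibitory subunit (chromosome 16, 77994731 to 77997962, minus strand), had 514 TPM in Rep1 against 0.172 TPM in Rep2, from at least 174 reads and 1 read, a log2(TPM + 1) difference of 8.78. The catalytic subunits that it inhibits were low in both libraries. *PDE6A* had 3.15 TPM in Rep1 against 0.0713 TPM in Rep2, from at least 18 and 7 reads. *PDE6B* was at 3.56 TPM in Rep1, which rested on at least 1 read, and at 2.49 TPM in Rep2, from at least 12. *PDE6C*, the cone catalytic subunit, was at 0.522 and 0.760 TPM. In Rep1 the level of *PDE6G* was therefore 163 times that of *PDE6A*, a partner with which it forms the rod enzyme. *PDE6H*, the cone inhibitory subunit, had 0 TPM in Rep1 against 0.0769 TPM in Rep2.

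The cyclic nucleotide-gated channel carries the dark current. *CNGB1*, the rod beta subunit, had 12.5 TPM in Rep1 against 2.11 TPM in Rep2, from at least 9 and 26 reads, a log2(TPM + 1) difference of 2.12. *CNGA1*, the rod alpha subunit, was at 1.5 TPM in Rep1, from at least 1 read, and at 0.438 TPM in Rep2. Of the cone subunits, *CNGA3* was listed at 0 in Rep1 and had 0.440 TPM in Rep2, about the level of *CNGA1* there, and *CNGB3* was listed at 0 in both. *CNGB1* overlaps *TEPP* on the opposite strand and *CNGA3* overlaps *VWA3B* on the same strand. *SLC24A1*, the rod exchanger that removes calcium, had 0.308 TPM in Rep1 against 0.860 TPM in Rep2.

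Of the 4 members that shut the response off, none exceeded 2.80 TPM in either library. *SAG*, the rod arrestin, had 1.74 TPM in Rep1 against 1.82 TPM in Rep2 (1.78 ± 0.0586, SD, n = 2), from at least 1 and 18 reads, and the sign of its small difference changed after scaling by the median of ratios. *RCVRN*, which encodes the calcium sensor recoverin, was at 2.80 and 0.912 TPM, from at least 5 and 28 reads. *ARR3*, the cone arrestin, was listed at 0 in Rep1 and was at 0.187 TPM in Rep2, and *GRK1*, the opsin kinase, was listed at 0 in both. *GNB5*, a subunit of the complex that switches transducin off and not among the 41 genes, had 79.3 TPM in Rep1, from at least 3 reads, and 40 TPM in Rep2, from at least 26.

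Among the genes that restore cyclic GMP, *GUCA1B*, a calcium-sensing activator of guanylate cyclase, had 13.3 TPM in Rep1 against 0.258 TPM in Rep2, from at least 3 reads and 1 read. *GUCY2F*, a photoreceptor guanylate cyclase, was at 9.31 TPM in Rep1 and listed at 0 in Rep2. *GUCA1A*, the neighbour of *GUCA1B* on chromosome 4, and *GUCY2D*, the other photoreceptor cyclase, were listed at 0 in Rep1 and reached 0.0730 and 0.0814 TPM in Rep2. The paired genes of this step thus differed in which library they were seen in, at levels that may rest on few reads.

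The transcription factors that specify photoreceptors were split as well. *OTX2*, a homeodomain factor of the early photoreceptor lineage that bipolar and pigment cells also use (chromosome 7, 118901435 to 118912050, minus strand), had 769 TPM in Rep1 against 0.0633 TPM in Rep2, from at least 707 reads and 1 read, a log2(TPM + 1) difference of 9.50. *NEUROD1*, a basic helix-loop-helix factor of photoreceptors and other neurons (chromosome 12, 68767705 to 68772428, minus strand), was at 740 TPM in Rep1 and listed at 0 in Rep2. *RORB*, a nuclear receptor upstream of rod fate, had 87.2 TPM in Rep1 against 0.394 TPM in Rep2, from at least 554 and 43 reads. These 3 factors stood at 87.2 TPM or more in Rep1, and none reached 1 TPM in Rep2. *CRX*, the homeodomain factor that drives most photoreceptor genes, was at 9.76 TPM in Rep1 and listed at 0 in Rep2. *NRL*, the factor that sets rod identity, was at 3.40 TPM in Rep1, from at least 1 read, and at 2.17 TPM in Rep2, from at least 11. *NR2E3*, which represses cone genes in rods, was listed at 0 in Rep1 and was at 0.454 TPM in Rep2.

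Structural genes of the outer segment and of the matrix around it were mostly low. *PRPH2*, the peripherin of disc rims, had 20.6 TPM in Rep1 against 0.174 TPM in Rep2, from at least 62 and 9 reads, a log2(TPM + 1) difference of 4.20. *ROM1*, its partner in the disc rim, went the other way, with 1.68 TPM in Rep1, from at least 1 read, and 20.5 TPM in Rep2, from at least 209, a difference of -3.00. *ROM1* overlaps *EML3* on the opposite strand, and the use of strand in counting is not given in the sources used here, so reads of this pair cannot be told apart. The same limit holds for the other overlaps on opposite strands, which are those of *GNAT1*, *GNGT2*, *CNGB1* with *TEPP*, *NRL* with *PCK2* and *DCAF11*, *PDE6H* with *ARHGDIB*, and *PDE6B*, *ABCA4*, *RP1* and *AIPL1* with unnamed loci. *ABCA4*, the transporter that clears retinal from discs, was at 3.77 and 3.24 TPM (3.50 ± 0.377, SD, n = 2). *IMPG1*, *IMPG2* and *RBP3*, genes of the matrix between photoreceptors and pigment epithelium, were listed at 0 in Rep1 and lay between 0.0483 and 0.162 TPM in Rep2, and *RP1*, a microtubule protein of the outer segment, was listed at 0 in both.

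Of the chaperones and regulators, *UNC119*, which carries lipid-modified proteins such as the transducin alpha subunit, was the highest of the 41 genes in Rep1. The gene (chromosome 16, 24169531 to 24175891, minus strand) had 4871 TPM in Rep1 against 30 TPM in Rep2, from at least 5179 and 548 reads, a log2(TPM + 1) difference of 7.30. Its rank among all genes was 18 in Rep1 and 4550 in Rep2. *PDC*, which encodes phosducin, a protein that binds the beta and gamma subunits of transducin, had 103 TPM in Rep1 against 0.120 TPM in Rep2, from at least 50 reads and 1 read. *TULP1*, needed for transport of proteins to the outer segment, was at 88.2 and 0.494 TPM, from at least 52 and 5 reads. *AIPL1*, the chaperone that folds phosphodiesterase 6, had 0 TPM in Rep1 against 0.383 TPM in Rep2.

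The order of the levels in Rep1 was *UNC119*, *GNAT1*, *GNB1*, *OTX2*, *NEUROD1*, *PDE6G*, *GNAT2*, *PDC*, *TULP1*, *RORB*, *PRPH2*, *GUCA1B*, *CNGB1*, *CRX* and *GUCY2F*. Only the steps from *GNB1* to *OTX2* (1.63 on the log2(TPM + 1) scale) and from *RORB* to *PRPH2* (2.03) were larger than 1.53. All other neighbours among these 15 genes were closer than that, the next largest step being *PDE6G* to *GNAT2* (1.36). The value of 1.53 is an SD per library from the root mean square of Rep1 minus Rep2 over all detected genes. It is not centred, so it includes the median shift of -1.07 between the libraries. A centred value would be smaller and could let further steps pass. The low values in Rep1 may rest on very few reads. Of the 22 genes above 0 in both libraries, 8 had minimum reads of 3 or fewer in Rep1, and for 7 of these the minimum was 1. The 3 genes seen in Rep1 alone, *CRX*, *GUCY2F* and *NEUROD1*, have no minimum, so the reads behind their values are unknown. For the 11 genes seen in Rep2 alone, 3 reads in Rep1 would have been worth at most 2.49 TPM for *IMPG2* and at most 95.3 TPM for *GNGT2*. This bound follows from the Rep2 level, which holds at least 1 read, and it was under 10 TPM for 7 of the 11 genes, including *PDE6H* (3.97 TPM), *GUCA1A* (3.76 TPM), *GUCY2D* (4.19 TPM) and *RBP3* (7.62 TPM). The bound covers counting error only, since copies made in amplification are not independent molecules. For the genes at 10 TPM or more in Rep1, the median length of the longest annotated transcript was 2598 bases and the median GC content 51.3% (n = 13). For the genes listed at 0 there, these medians were 2460 bases and 51.8% (n = 16). The ranges of the sets overlapped, from 1311 to 7880 bases and from 517 to 7416 bases.

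Rods and cones use different genes for most steps, which allows 7 pairs of paralogs to be compared within a library. In Rep1 the rod gene was the higher in 6 of the 7 pairs and both were at 0 in the pair *GNGT1* and *GNGT2*. The log2 ratio of rod to cone, with 1 TPM added to each, ran in those 6 pairs from 1.32 for *CNGA1* and *CNGA3* to 9.01 for *PDE6G* and *PDE6H*, with 3.78 for *GNAT1* and *GNAT2*. The direction in Rep1 is not settled for *CNGA1* and *CNGA3* or for *SAG* and *ARR3*, since both rod values rest on a minimum of 1 read, while 3 reads would have been worth up to 22.7 TPM for *CNGA3* and 9.66 TPM for *ARR3*. *PDE6B* and *PDE6C* also have a minimum of 1 read each there. In Rep2 the rod gene was the higher in 5 pairs and the cone gene in 2, and the ratios lay between -1.51 and 1.64. The rod genes of the pairs summed to 3296 TPM and the cone genes to 200 TPM in Rep1, against 8.59 and 4.0 TPM in Rep2. These sums depend on the pairs chosen. Left out were the beta subunits *GNB1* (2389 TPM in Rep1, but used by most cells) and *GNB3* (958 TPM, cone). Also left out were the rod exchanger *SLC24A1* and its cone paralog *SLC24A2*, the higher in both libraries (0.764 against 0.308 TPM in Rep1, 3.99 against 0.860 TPM in Rep2). *GNAT1* and *PDE6G* made up nearly all of the rod sum in Rep1, and *GNAT2* nearly all of the cone sum. Paralogs can share reads, and how reads with several alignments were counted is not given in the sources used here.

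**Figure D3:**
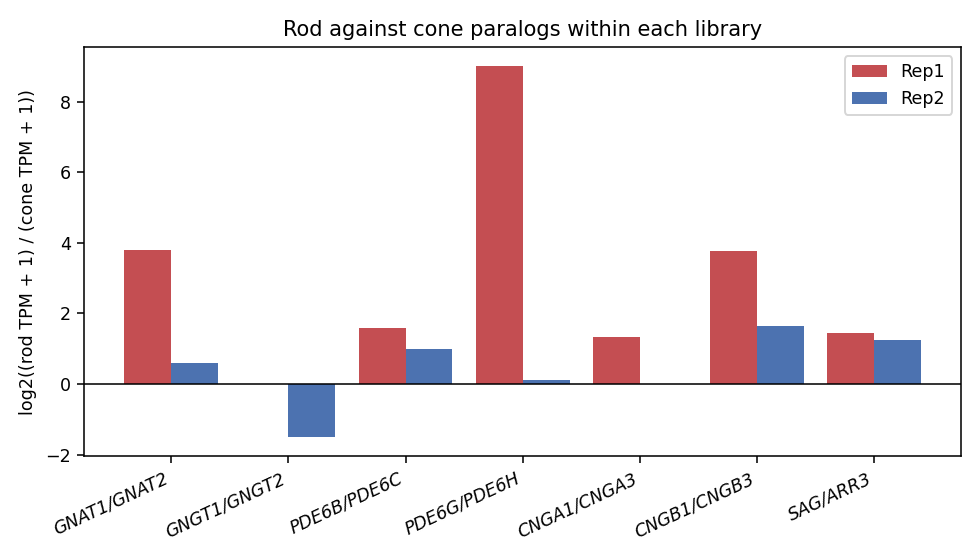
Log2 ratio of the rod to the cone paralog, with 1 TPM added to each, within Rep1 (red bars) and Rep2 (blue bars), 1 library each and without error bars. The bars of Rep1 are the higher for all 7 pairs, from 0 for *GNGT1*/*GNGT2*, both listed at 0 there, to 9.01 for *PDE6G*/*PDE6H*. The Rep1 bars of *PDE6B*/*PDE6C*, *CNGA1*/*CNGA3* and *SAG*/*ARR3* use values with a minimum of 1 read, so their height is uncertain.

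The promoters were examined for letters that photoreceptor factors are known to bind, since *OTX2* was high and *CRX* was listed above 0 in Rep1. The motif TAATCC, the core recognised by homeodomain factors of the *CRX* and *OTX2* type, was searched on both strands from 250 bases before to 50 bases after the annotated start of each gene in Mmul_10. It was found in 16 of the 41 promoters (39.0%) and in 9.39% of 16267 promoters of protein-coding genes in the table. In 9 of the 41 (22.0%) it was part of TAATCCCA, letters that also occur in the Alu repeat of primate genomes, beside 4.0% of all promoters searched. Whether these 9 promoters hold such a repeat was not tested. Outside TAATCCCA, a restriction chosen after these matches were seen, the motif was found in 7 of the 41 promoters (17.1%), beside 5.75% of all. The motif TGCTGA, part of the longer site bound by *NRL*, was found in 5 promoters (12.2%), beside 14.4% of all. Among the highest genes of Rep1 it was found in *GNAT1* and *OTX2*. The stretches around TAATCC outside TAATCCCA are shown for *TULP1*, which was high in Rep1, and for *SAG*, *PDE6A* and *RBP3*, which were not. Capitals mark TAATCC or, read from the other strand, GGATTA.
*TULP1*, chr4:133974134-133974203, plus strand: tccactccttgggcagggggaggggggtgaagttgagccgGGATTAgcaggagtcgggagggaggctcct
*SAG*, chr12:120756914-120756999, plus strand: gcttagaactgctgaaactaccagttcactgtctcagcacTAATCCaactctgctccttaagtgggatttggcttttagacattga
*PDE6A*, chr6:147450557-147450642, minus strand: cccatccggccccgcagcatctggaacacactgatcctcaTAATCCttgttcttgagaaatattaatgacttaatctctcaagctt
*RBP3*, chr9:49694360-49694445, plus strand: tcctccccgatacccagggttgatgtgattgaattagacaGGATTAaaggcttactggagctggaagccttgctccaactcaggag
The motif in these stretches began at position -30 from the annotated start in *TULP1*, at -61 in *RBP3*, -71 in *SAG* and -72 in *PDE6A*. Of the 15 genes at least 4-fold higher in Rep1, 6 held TAATCC in either form (*UNC119*, *PDE6G*, *TULP1*, *PRPH2*, *GUCA1B* and *CNGB1*), and of the other 26 genes 10 did. Outside TAATCCCA, only *TULP1* of the 15 held the motif. The remaining promoters with this form belonged to the other 26 genes. A match is a description of the sequence, and annotated starts can differ from those used in the tissue.

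Other genes of rods and cones were examined in a list of 30, of which 28 were in the table. They summed to 1127 TPM in Rep1 and 126 TPM in Rep2. Of these 28 genes, 3 were at least 4-fold higher in Rep1 and 2 at least 4-fold lower, beside 8.30% and 30.7% of all genes above 0. Listed at 0 were 13 in Rep1 and 7 in Rep2, beside 38.5% and 12.5% of all genes. *GNB3* held most of the sum in Rep1. *OPN1LW*, a cone opsin, was at 12.8 TPM in Rep1 and listed at 0 in Rep2, whereas *OPN1SW*, the opsin of short-wavelength cones, was listed at 0 in Rep1 and was at 4.09 TPM in Rep2. The median difference of the 22 genes above 0 was -0.28.

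Markers of neighbouring cells moved unevenly beside the photoreceptor genes. Of 17 listed markers of the inner retina and Muller cells, 9 were higher and 7 lower in Rep1, their sums were 958 and 2146 TPM, and their median difference over the 16 above 0 was 0.48. Of these, 6 were at least 4-fold higher in Rep1 and 2 at least 4-fold lower, beside 8.30% and 30.7% of all genes above 0. Over all genes of the table, 3547 were higher and 11146 lower in Rep1. *GAD1*, an enzyme of inhibitory neurons, had 189 TPM in Rep1 against 1.35 TPM in Rep2. *PRKCA*, a kinase of rod bipolar cells among others, had 127 TPM in Rep1 against 2.22 TPM in Rep2. Other bipolar cell genes of the list were split. *GRM6* and *VSX1* were listed at 0 in Rep1 and had 1.09 and 0.350 TPM in Rep2. *TRPM1* (4.66 against 1.57 TPM) and *GRIK1* (16.9 against 0.291 TPM) were higher in Rep1. At the top of the list in both libraries, *GLUL*, which astrocytes and Muller cells share, was at 364 and 1506 TPM. *DKK3* of the same list was also lower in Rep1 (109 against 584 TPM). *RLBP1* was higher there (76.7 against 6.12 TPM, from at least 27 and 37 reads). Of 10 ganglion cell markers, 2 were higher and 6 lower in Rep1, with sums of 575 and 1743 TPM that *THY1* dominated in Rep2 (203 and 1535 TPM). *ISL1*, a transcription factor of ganglion and other retinal neurons, went the other way, with 186 TPM in Rep1 and a listing at 0 in Rep2. Of 10 markers of the retinal pigment epithelium, 2 were higher and 8 lower, with sums of 36.0 and 64.7 TPM. Pinealocytes express several photoreceptor genes too. Of 7 pineal markers, 5 were listed at 0 in Rep1 and 4 in Rep2, beside 38.5% and 12.5% of all genes. Among those at 0 in Rep1 were *AANAT*, *ASMT* and *TPH1*, which make melatonin. *AANAT* and *TPH1* were listed at 0 in Rep2 too, and *ASMT* had 0.349 TPM there. At the depth of Rep1 such zeros do not show absence. *LHX4*, also a retinal gene, was at 86.3 TPM in Rep1 against 1.99 TPM in Rep2. The part of these cells in the levels of the photoreceptor genes was not tested, and a difference between the nerves, in dissection or in library preparation cannot be told apart with 1 library of each.

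**Figure D4:**
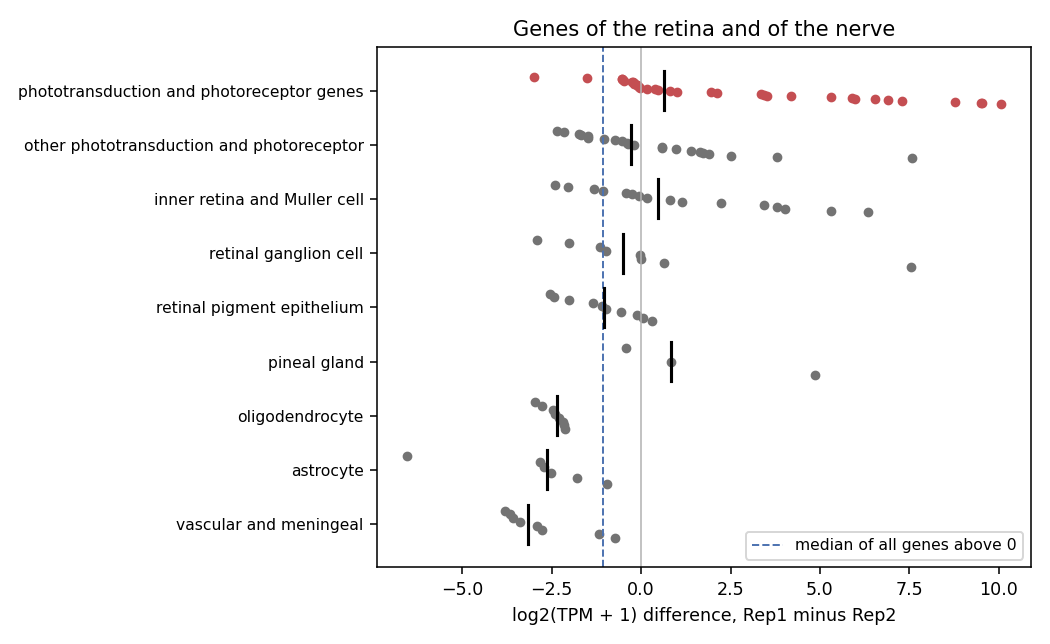
Difference in log2(TPM + 1), Rep1 minus Rep2, of each gene above 0 in at least 1 library (points), for the 41 photoreceptor genes (red) and 8 other lists (grey), with the median of each list as a black bar and that of all genes above 0 as a dashed line at -1.07. All 22 nerve markers lie below 0, and the photoreceptor genes run from -3.00 to 10.08.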

How the data were processed

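Total RNA of untreated macaque optic nerves was sequenced in 2 libraries. Per the paper's methods and the submitters' processing notes, the authors checked reads with FastQC 0.11.9, trimmed them with Trim Galore 0.6.6, aligned to Mmul_10 with STAR 2.7.1a and counted with featureCounts 1.5.3. The deposited values are TPM per gene and library, made by the authors from those counts. Gene lengths, strand and multiply aligned reads are not given in the sources used here. The columns Rep1 and Rep2 are not tied to single sample titles and were used as replicates of the condition.

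Levels were taken as deposited, with mean and SD, and differences on log2(TPM + 1), which understates changes of low genes. A gene counted as called past 4-fold on that scale. For minimum reads, Rep1 over Rep2 was written for each gene as a ratio of whole numbers times a common constant (tolerance 1e-12, product up to 100000000), which succeeded for 99.9% of 10168 genes. The absolute depth is unknown, so no confidence interval was given. Annotation and promoters came from RefSeq on Mmul_10, the build the authors used. The members and lists were chosen with earlier results of these data known. The naming rule was that every member is accounted for, that those of at least 10 TPM in either library, with subunits and paralogs, are given with values and the rest by ranges, and that other lists show opsins and their highest gene. Beyond it, values of further low members and of some genes of the other lists are given, chosen after they were seen. The latter are *GAD1*, *PRKCA*, *GRM6*, *VSX1*, *TRPM1*, *GRIK1*, *DKK3*, *RLBP1*, *ISL1*, *SLC24A2*, *AANAT*, *ASMT* and *TPH1*. A few genes and sequences are not reported here, among them 2 genes of the comparison lists, which were taken out of those lists after their values had been seen, so the counts, medians and sums of the lists are without them. The alternatives tried were median-of-ratios scaling, a pseudocount of 0.1, a 2-fold threshold, a minimum mean of 1 TPM, removal of the 10 genes of highest level, and each library alone. Python 3.11.15, numpy 2.4.6, pandas 2.3.3 and matplotlib 3.10.9 were used, and the scripts were tested on simulated data.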

Additional observations from a re-analysis of the deposited data

How the results depend on the processing

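No paired analysis was possible because there was a single condition, with no second group to pair. The number of genes called higher in Rep1, at 4-fold or in 1 alternative at 2-fold, stayed between 15 and 16 under all 5 alternatives. The number at least 4-fold lower was 1, and it became 5 with a pseudocount of 0.1, which widens the differences of low genes. At a 2-fold threshold, 2 genes were called lower. The median difference of 0.64 rose to 3.85 under a minimum mean of 1 TPM. That mean includes Rep1, so genes such as *GNAT2*, *OTX2* and *NEUROD1* passed through their Rep1 value alone. Genes low in both libraries dropped out, and none of the 15 could. The rise therefore follows from the filter and is no evidence of a direction. The median difference was 1.34 after median-of-ratios scaling, where the size factors differed by -1.19 (log2, Rep1 minus Rep2). That scaling changed the sign of the difference for *PDE6C* and *SAG* and for no other of the 41 genes. The median log2 ratio of rod to cone paralogs in Rep1 was 1.58, and 4.0 with a pseudocount of 0.1. The mean sum of 6372 TPM ran from 132 to 12612 TPM between the single libraries, and it was 2697 TPM without *UNC119* and *GNB1*, an alternative chosen after seeing the data. With 2 libraries, either one is by construction 0.707 SD away from the mean, so shifts under 1 SD for single genes say nothing about stability. The depth of Rep1 limits all genes listed at 0 or resting on few reads there, where low values do not show absence.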
